A study of Gallus gallus with 14 samples.

Results

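Insulin and IGF signalling genes were followed across 14 RNA sequencing libraries of chick retina. They are 2 ligands, IGF1 and IGF2, the receptors INSR and IGF1R, the adaptors IRS1 and IRS2, and the binding proteins IGFBP2, IGFBP3 and IGFBP5. Rows of the deposited table with these symbols gave 8 of the 9 genes out of 18631 listed genes; IRS1 was not analysed here. All 8 were among the 14259 genes that passed the filter on low values. Every library came from wild type White Leghorn chickens whose age label reads postnatal day 3. The lens group, labelled as lens-induced myopia, held 7 retinas from birds that wore -10 D lenses, fitted on Velcro rings, for 3 days; such lenses focus the image behind the retina and the eye grows longer. The control group held 7 retinas labelled only as control, so whether these birds wore an empty ring is not stated. The labels do not say that each retina came from a separate bird, so p-values measure the spread between these samples, which may be technical in part.

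Insulin, IGF1 and IGF2 act through the related receptor tyrosine kinases INSR and IGF1R. The activated receptors phosphorylate IRS adaptors, which recruit PI3K and switch on AKT, and AKT in turn restrains GSK3 and the FOXO transcription factors and drives TOR. IGF binding proteins are secreted and control how much ligand reaches the receptors. In chicks, insulin injected into the eye promotes elongation, opposite in direction to glucagon.

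Values are CPM, read counts scaled to a fixed library total, and fold changes are differences of log2(CPM + 1), lens minus control, which understate the change of low genes. The low values imply library totals of 30.8 to 41.4 M reads, of which the listed genes hold 9.68 to 13.8 M. A count of 0 allowed up to 0.0724 to 0.0973 CPM (3 reads in each library, counting error only). Photoreceptor, Müller glia, bipolar, amacrine, horizontal and ganglion cell markers were all present; GLUL, the glutamine synthetase of Müller glia, averaged 542 CPM in control and 521 CPM in lens retinas. W-linked RNA, which female birds carry, was read from HINTW: 5 libraries stood at 116.8 to 145.04 CPM and 9 at 0.0243 to 0.549 CPM. Those with it were replicates 2, 3, 4 and 7 of the control group, and of the lens group replicate 4 alone. Levels of different genes are not ranked here, since CPM is not corrected for transcript length.

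**Figure D1:**
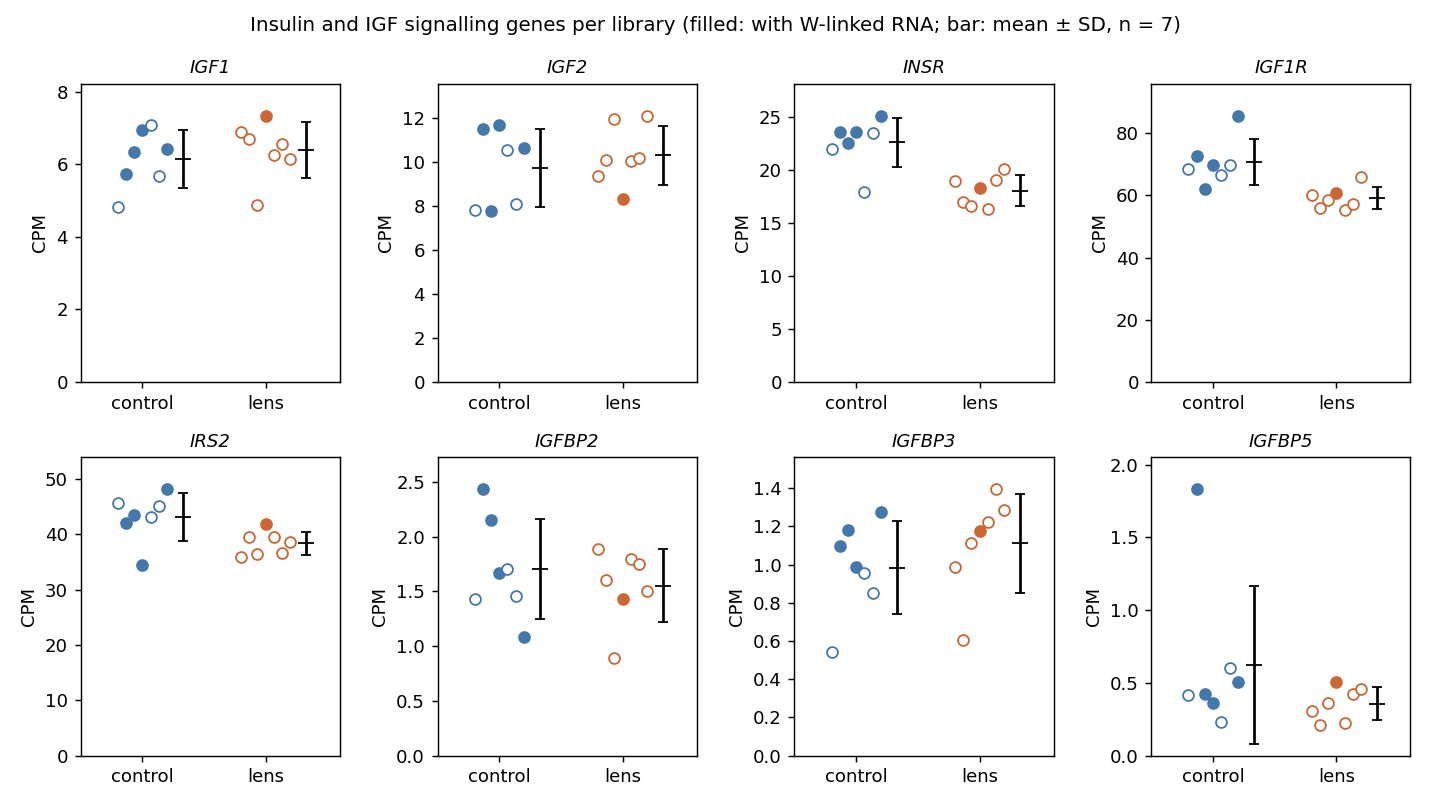
CPM of each of the 8 genes in every library, controls left and lens libraries right, each panel on its own linear axis from 0; filled points mark libraries with W-linked RNA and bars give the mean ± SD (n = 7 per group). INSR, IGF1R and IRS2 lie lower in most lens libraries, and IGFBP5 is set apart in control replicate 2 at 1.83 CPM.

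The lens comparison asks whether the pathway's transcripts differ while the eye compensates for imposed defocus. Both receptors and the adaptor IRS2 had lower means in lens retinas, the 2 ligands had similar means in both groups, and the binding proteins varied most between libraries. None of the 8 genes passed limma at an adjusted p under 0.05 over all genes tested, where 0.0771% of all genes did (0.00701% higher and 0.0701% lower). At an unadjusted p under 0.05, 3 of the 8 genes were reached, INSR, IGF1R and IRS2, all lower, beside 13.5% of all genes in either direction, 3.03% higher and 10.5% lower. After median ratio rescaling or rescaling to the same sum, INSR and IGF1R were reached and IRS2 was not (log2 fold changes of -0.26, -0.20 and -0.11 after the former). Of the 14259 genes tested, 991 were then lower and 915 higher at that threshold after the former, and 1205 lower and 677 higher after the latter. The median log2 fold change was -0.12 over the 8 genes and -0.04 over all genes tested. In retina as a whole, fewer cells of a type and less RNA per cell cannot be told apart.

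INSR, the insulin receptor, spans 4215002 to 4257793 on the minus strand of chromosome 28, in the deposited coordinates, for which the submitters' processing notes name GRCg6a. Control libraries lay between 17.95 and 25.15 CPM with a median of 23.5 CPM, and lens libraries between 16.3 and 20.15 CPM with a median of 18.3 CPM. All 7 lens libraries lay below the control median, and 6 of 7 controls lay above every lens library; control replicate 5, at 17.95 CPM, lay among the lens libraries. The means were 22.6 ± 2.28 and 18.05 ± 1.45 CPM (SD, n = 7 each), 20.2% lower in the lens group. The log2 fold change was -0.31 (SE 0.07, 95% interval -0.46 to -0.16), with a limma adjusted p of 0.0991, and INSR ranked 54 among the genes tested. An exact two-sided permutation test over the 3432 assignments of 7 libraries gave p = 0.00291, or 0.244 adjusted over all genes. Of all genes, 1758 had a permutation p under 0.05 and 0 passed the adjustment. The smallest p that this test can give is 0.000583, so over 14259 genes none can pass unless many lie near that value. Its adjusted values therefore cannot decide on a single gene. Without control replicate 5 INSR passed, with a log2 fold change of -0.36 (SE 0.06) and a limma adjusted p of 0.0334. In no other case of leaving out 1 library did it pass.

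IGF1R, the receptor for IGF1 and IGF2, spans 17124349 to 17264664 on the minus strand of chromosome 10. It stood at 62.04 to 85.65 CPM in controls, with a median of 69.7 CPM, and at 55.4 to 65.8 CPM in lens libraries, with a median of 58.6 CPM. The groups overlapped by a single library on each side: lens replicate 7 exceeded control replicate 3, and the other 6 lens libraries lay below every control. Means were 70.7 ± 7.37 CPM in control and 59.1 ± 3.56 CPM in lens retinas (SD, n = 7 each), 16.4% lower with the lens. Limma gave a log2 fold change of -0.25 (SE 0.06, 95% interval -0.38 to -0.12) and an adjusted p of 0.119, at rank 76. The exact permutation p was 0.00117, where the smallest that 7 against 7 libraries can give is 0.000583; it was 0.222 adjusted over all genes. Of the 14259 genes tested, 0.267% had groups that did not overlap at all, and none of the 8 was among them.

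IRS2, the adaptor that carries the signal from both receptors to PI3K, spans 139954310 to 139998485 on the minus strand of chromosome 1. Controls ranged from 34.55 to 48.2 CPM around a median of 43.6 CPM, and lens libraries from 35.97 to 41.8 CPM around 38.6 CPM. Control replicate 4 was the lowest of all 14 libraries, while the other 6 controls lay above every lens library. Means were 43.2 ± 4.30 and 38.4 ± 2.13 CPM (SD, n = 7 each), with a log2 fold change of -0.16 (SE 0.06, 95% interval -0.30 to -0.03), unadjusted p = 0.0197 and adjusted p = 0.276 by limma. The remaining adaptor of the family in the table, IRS4, stood at 24.4 ± 1.75 and 23.3 ± 0.950 CPM (SD, n = 7 each), a log2 fold change of -0.07.

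INSR and IGF1R had similar profiles over the libraries. Among the 28 pairs of the 8 genes they had the highest Pearson's r on log2(CPM + 1), 0.84, with Spearman's rho 0.86, described here with no test. It was 0.80 without the 2 libraries farthest from the median of INSR, 0.55 among the 7 controls and 0.77 among the 7 lens libraries. Lens replicates 2, 3 and 5 were the lowest for INSR, and control replicate 7 was the highest for both receptors. IRS2 followed them less closely: its r was 0.57 with IGF1R over all libraries but 0.31 in controls and 0.01 in lens libraries, and 0.45 with INSR, with 0.02 and -0.17 inside the groups. Of the 28 pairs, 3 had r above 0.5 and 1, IGF2 with IRS2, lay at -0.51. Beside the pairs of IGF1R with INSR and with IRS2, INSR with IGFBP5 was above 0.5. Its r was 0.54 (rho 0.66), with 0.41 in controls and 0.68 in lens libraries. IGF1R with IGFBP5 had an r of 0.47 (rho 0.65), with 0.25 and 0.72 inside the groups.

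**Figure D2:**
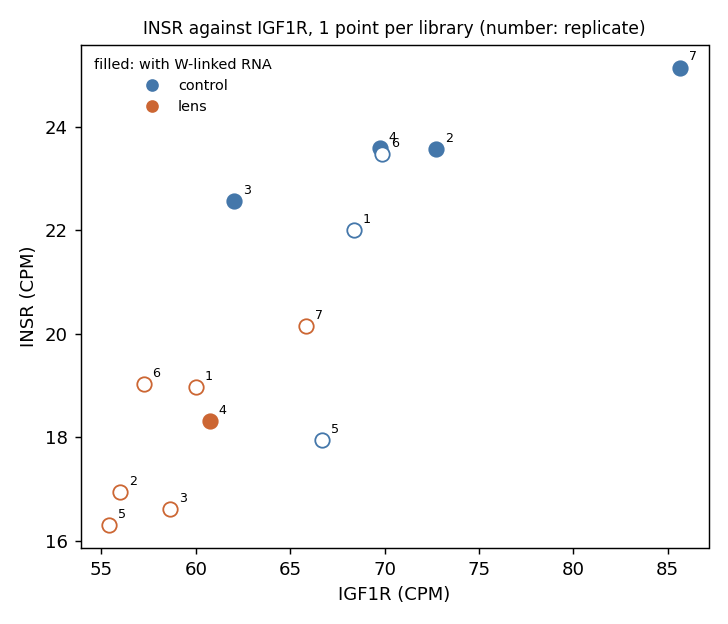
INSR against IGF1R in CPM on linear axes that do not start at 0, 1 point per library, numbered by replicate and filled where W-linked RNA was present. Lens libraries gather at the lower left and controls at the upper right, with control replicate 5 among the lens libraries on the INSR axis (17.95 CPM) but above each of them on the IGF1R axis (66.7 CPM).

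The ligands did not separate the groups. IGF1 spans 55281097 to 55329526 on the plus strand of chromosome 1. It ranged from 4.81 to 7.07 CPM in controls (median 6.33 CPM) and from 4.86 to 7.34 CPM in lens libraries (median 6.55 CPM), and the ranges overlapped almost wholly. The log2 fold change was 0.05 (SE 0.09), with a 95% interval of -0.14 to 0.24 and a limma adjusted p of 0.844. IGF2 spans 13964428 to 13981565 on the plus strand of chromosome 5. Controls ranged from 7.75 to 11.7 CPM (median 10.55 CPM) and lens libraries from 8.32 to 12.1 CPM (median 10.1 CPM). Its log2 fold change was 0.08 (SE 0.10, 95% interval -0.14 to 0.30, limma adjusted p = 0.762). Both intervals reach from -0.14 upwards and do not show that the levels are the same.

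An opposite-strand transcript of unknown function, LOC107053399, overlaps IGF2 in part and had a mean of 0.433 CPM over the libraries. The use of strand in the counting is not given in the sources used here, so reads of the 2 cannot be told apart with certainty. A separate row named INS-IGF2 lies upstream of IGF2 on the same strand, from 13936697 to 13950123. It was listed at 0 to 0.183 CPM, which corresponds to 0 to 7 reads per library, and it did not pass the filter on low values. INS itself, the insulin gene, was not analysed here.

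The binding proteins were low and variable. IGFBP2 (chromosome 7, 23252168 to 23328029, minus strand) ranged from 1.09 to 2.43 CPM in controls and from 0.895 to 1.89 CPM in lens libraries, with medians of 1.67 and 1.601 CPM. The lower of each range rests on 41 and 37 reads. Its log2 fold change was -0.08 (SE 0.11, limma adjusted p = 0.799), and it was 0.01 in the 9 libraries that lack W-linked RNA. IGFBP3 (chromosome 2, 54932446 to 54948021, minus strand) ranged from 0.541 to 1.27 CPM in controls and from 0.604 to 1.39 CPM in lens libraries, medians 0.990 and 1.18 CPM. Its log2 fold change was 0.09 (SE 0.10, limma adjusted p = 0.722).

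IGFBP5 (chromosome 7, 23231238 to 23249161, plus strand) lies 3006 bases from IGFBP2 and is transcribed in the opposite direction. It ranged from 0.232 to 1.83 CPM in controls (median 0.421 CPM) and from 0.210 to 0.504 CPM in lens libraries (median 0.363 CPM). Control replicate 2 alone lay above 0.604 CPM, at 70 reads against 8 to 22 in the other 13 libraries. Its exact 95% Poisson interval, 1.43 to 2.31 CPM, covers counting error only and lies above the other 13 values. The log2 fold change was -0.21 (SE 0.14, limma adjusted p = 0.507), but -0.07 (SE 0.07) without control replicate 2 and -0.47 with a pseudocount of 0.1. The control mean was 0.624 ± 0.545 CPM with that library (SD, n = 7) and 0.423 ± 0.126 CPM without it (SD, n = 6).

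Control replicate 2 was the highest library for IGFBP2 as well, at 2.43 CPM against 0.895 to 2.15 CPM in the other 13, and for the row INS-IGF2. The transcript LOC107053888, which overlaps IGFBP5 on the opposite strand, was not: it stood at 1.49 CPM there and at 1.17 to 3.31 CPM elsewhere. Over all libraries it averaged 1.899 CPM and IGFBP5 0.490 CPM, values not corrected for transcript length. As for IGF2, the use of strand in the counting is not given, so their reads cannot be told apart with certainty. Markers of pericytes and fibroblasts, 7 listed of 7, summed to 1.65 CPM in control replicate 2 and to at most 1.39 CPM in the other libraries; among them PDGFRB had its highest value there, 0.445 CPM, and LUM was at 0. The part of these cells in the IGFBP5 value was not tested.

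**Figure D3:**
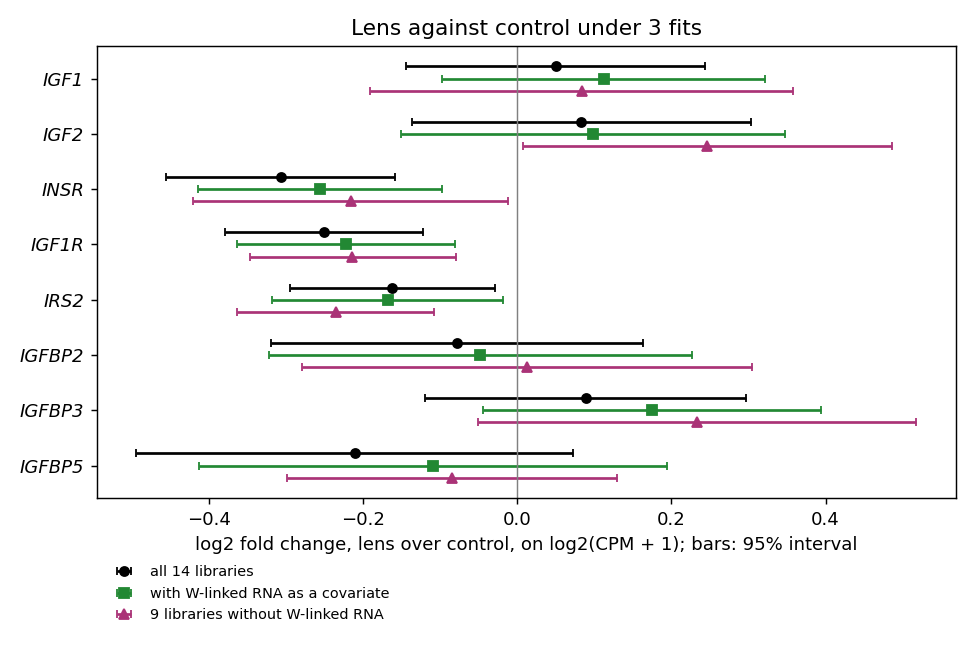
Log2 fold change of each gene, lens over control on log2(CPM + 1), with its 95% interval from limma, from 3 fits: all 14 libraries, all 14 with a W-linked RNA term, and the 9 that lack W-linked RNA. INSR, IGF1R and IRS2 lie below 0 in the 3 fits (-0.31, -0.25 and -0.16 with all libraries), and the intervals of the binding proteins and of IGF1 cross 0 in each.

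Comparison by W-linked RNA, as the sign of sex that the files hold, gave no call among the 8 genes. With treatment in the model, 0 of the 8 passed limma, where 2.64% of all genes tested did (0.161% higher and 2.48% lower). At an unadjusted p under 0.05 there were also 0 of 8, where 10.6% of all genes were reached (5.21% higher and 5.37% lower). Without the treatment term 3 of 8 were reached, beside 1733 of the 14259 genes tested (1066 higher and 667 lower). INSR averaged 22.6 ± 2.59 CPM in the 5 libraries with W-linked RNA and 19.05 ± 2.47 CPM in the 9 without (SD), but 4 of those 5 were controls. Among controls it was 23.7 ± 1.07 CPM (SD, n = 4) and 21.1 ± 2.87 CPM (SD, n = 3). The log2 difference, with minus without W-linked RNA and with treatment in the model, was 0.12 (SE 0.08, adjusted p = 0.635) for INSR. Without control replicate 5 that of INSR was 0.05 (SE 0.07). The log2 difference was 0.07 (SE 0.07, adjusted p = 0.805) for IGF1R. The largest was that of IGFBP5, 0.24 (SE 0.15, adjusted p = 0.627), which was 0.08 without control replicate 2. IGFBP3 followed at 0.20 (SE 0.11, adjusted p = 0.566), and its 5 libraries with W-linked RNA lay at 0.990 to 1.27 CPM, inside the range of the other 9. Among controls, however, the 4 with W-linked RNA lay above the 3 without, which ranged from 0.541 to 0.954 CPM. The log2 difference in controls only was 0.27 (SE 0.12, limma adjusted p = 0.489). All 8 genes lie on autosomes.

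W-linked RNA was present in 4 control and 1 lens libraries, so lens values were also taken with a term for it. INSR then stood at -0.26 (SE 0.08, adjusted p = 0.242) and IGF1R at -0.22 (SE 0.07, adjusted p = 0.247), and IRS2 at -0.17 (SE 0.07, adjusted p = 0.394). In the 3 control and 6 lens libraries that lack W-linked RNA, IGF1R averaged 68.3 ± 1.596 and 58.9 ± 3.82 CPM (SD) and IRS2 44.7 ± 1.38 and 37.8 ± 1.63 CPM (SD). The log2 fold changes there were -0.21 for IGF1R, -0.24 for IRS2 and -0.22 for INSR, with limma adjusted p of 0.378, 0.267 and 0.604. IGF2 stood at 0.25 in those libraries (SE 0.11, unadjusted p = 0.0444, adjusted p = 0.608), 8.83 ± 1.495 CPM in 3 controls and 10.6 ± 1.13 CPM in 6 lens libraries (SD). The single lens library with W-linked RNA, lens replicate 4, had 18.3 CPM of INSR and 60.7 CPM of IGF1R, both below all 4 controls with W-linked RNA.

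Summed marker levels of other cell types lay lower, level or higher in lens libraries, depending on the list. The 5 listed photoreceptor markers of 7 summed to 1065 to 1290 CPM in controls, median 1172, and to 746 to 1201 CPM in lens libraries, median 981. The 8 Müller glia markers summed to 1369 to 1567 CPM (median 1456) and 1328 to 1438 CPM (median 1381). The 6 listed microglia markers of 7 summed to 4.28 to 6.99 CPM in controls and 3.61 to 5.77 CPM in lens libraries. Pigment epithelium markers, 8 listed of 8, summed to 12.9 to 22.4 and 13.4 to 18.6 CPM, mostly from OCA2, while RPE65 stood at 0.899 to 7.003 CPM, and TYR, PMEL, MLANA and BEST1 were at 0 in at least 1 library. Medians were higher with the lens for the 5 listed oligodendrocyte markers of 6 (124.7 CPM in control and 151.7 CPM in lens libraries), mostly from MBP. They were also higher for the 5 horizontal cell markers (89.2 and 107.7 CPM), but these markers were mixed. ONECUT2 (means of 49.0 and 53.9 CPM) and ISL1 (13.3 and 14.15 CPM) were higher with the lens. CALB1 (39.1 and 31.9 CPM), LHX1 and ONECUT1 were lower, and the median log2 fold change of the 5 was -0.05. The median sum was level for the 7 endothelium and choroid markers (47.4 and 47.45 CPM), mostly from KDR and PECAM1. CDH5, VWF, TIE1, TEK and EGFL7 each averaged at most 0.680 CPM in either group, and 3 of these 7 markers were tested. The ranges of control and lens libraries overlapped for each of these lists. No tested marker on them passed limma, and their part in the receptor values was not tested.

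The wider pathway was described with 103 genes in 13 roles, of which 93 were listed and 89 tested, the 8 genes included. Leaving those out, 81 genes were tested and 0 passed limma over all genes; at an unadjusted p under 0.05 there were 11 lower and 1 higher. That is 13.6% of the 81 lower, beside 10.5% of all genes. The median log2 fold change of the 81 was -0.06, and 69.1% of them were negative, beside 63.2% of all genes. After median ratio rescaling the split was 6 lower and 5 higher with a median of -0.01, and over all genes the lower share of those at an unadjusted p under 0.05 went from 77.6% to 52.0%.

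Among receptors, IGF2R and INSRR did not share the lower means of INSR and IGF1R. IGF2R, the mannose 6-phosphate receptor that clears IGF2 in mammals, stood at 63.3 ± 6.21 CPM in control and 65.3 ± 4.51 CPM in lens retinas (SD, n = 7 each), with 0.05 (SE 0.06) on the log2 scale. INSRR, an orphan relative of INSR, was low at 0.133 ± 0.0625 and 0.197 ± 0.0852 CPM (0.08, SE 0.06). Whether the receptors differ from each other in their lens effect was not tested.

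Of the other binding proteins, IGFBP4 stood at 6.08 ± 1.19 CPM in control and 4.06 ± 1.81 CPM in lens retinas (SD, n = 7 each), ranges 4.51 to 8.21 and 1.55 to 7.39 CPM. Its log2 fold change of -0.55 (SE 0.19) was the most negative of the whole list, with unadjusted p = 0.00926 and adjusted p = 0.221. IGFBP7, which binds IGFs only weakly, stood at 1.93 ± 0.384 and 1.36 ± 0.274 CPM (log2 fold change -0.31, SE 0.10, adjusted p = 0.207). The proteases that cut binding proteins and their inhibitors had 0 of 5 genes at an unadjusted p under 0.05, beside 13.5% of all genes. Of these STC1, a stanniocalcin that inhibits PAPPA, had 0.14 and STC2 -0.08, and HTRA1 stood at 99.9 ± 9.17 and 98.8 ± 7.93 CPM (SD, n = 7 each). The RNA-binding proteins of IGF2 mRNA, IGF2BP1, IGF2BP2 and IGF2BP3, had values of -0.10, -0.11 and -0.07.

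In the adaptor group GAB1 had a log2 fold change of -0.18 and SHC1 -0.16. At an unadjusted p under 0.05, 1 of 8 adaptors, IRS2, was reached and was lower, beside 10.5% of all genes lower. Inhibitors of the receptors had 0 of 7, beside 13.5% of all genes in either direction. The phosphatases PTPRF and PTPN1, which remove phosphate from the insulin receptor, stood at -0.21 and 0.09. Of the PI3K and AKT core, 1 of 9 was reached and was lower, beside the same 10.5% of all genes. PIK3R2, a regulatory subunit of PI3K, had 14.3 ± 2.28 CPM in control and 10.8 ± 1.66 CPM in lens retinas (SD, n = 7 each), a log2 difference of -0.38 (SE 0.10) with a limma adjusted p of 0.156. AKT1 stood at 18.04 ± 1.59 and 17.2 ± 1.36 CPM.

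Antagonists of PI3K and AKT had 4 of 8 genes at an unadjusted p under 0.05, all with lower means, beside 10.5% of all genes lower. With a term for W-linked RNA, INPP4A and PHLPP1 no longer reached it, while INPP4B and TRIB1 did. After median ratio rescaling all 4 were closer to no change: -0.08 for INPP4A, -0.08 for INPP4B, -0.155 for TRIB1 and -0.05 for PHLPP1. INPP4A and INPP4B, lipid phosphatases of the pathway, had log2 fold changes of -0.13 each (adjusted p = 0.232 and 0.272), TRIB1 -0.20 and the AKT phosphatase PHLPP1 -0.10. GSK3B, a kinase that AKT inhibits, had 22.1 ± 2.76 CPM in control and 17.3 ± 2.10 CPM in lens retinas (SD, n = 7 each), ranges 18.7 to 25.4 and 14.5 to 19.7 CPM, a log2 fold change of -0.34 (SE 0.08, adjusted p = 0.133). FOXO3 stood at 39.4 ± 3.69 and 34.35 ± 1.54 CPM (-0.19, SE 0.06, adjusted p = 0.196), and FOXO1 at 0.09.

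Genes that FOXO factors induce in other tissues had 1 higher and 2 lower of 9 at an unadjusted p under 0.05. Of all genes tested, 3.03% were higher and 10.5% lower at that threshold. SESN3, a sestrin that restrains TOR, ranged from 72.1 to 85.5 CPM in controls and from 80.3 to 100.3 CPM in lens libraries (log2 fold change 0.17, SE 0.06, adjusted p = 0.203). CDKN1B, an inhibitor of the cell cycle, had -0.18 and KLF15 -0.23. At an unadjusted p under 0.05 the TOR branch had 0 of 13 and the RAS and ERK branch 0 of 10. Of all genes tested, 13.5% were reached in either direction. RICTOR had 0.20 and DEPTOR 0.10, and MAP2K1, a kinase upstream of ERK, -0.14.

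**Figure D4:**
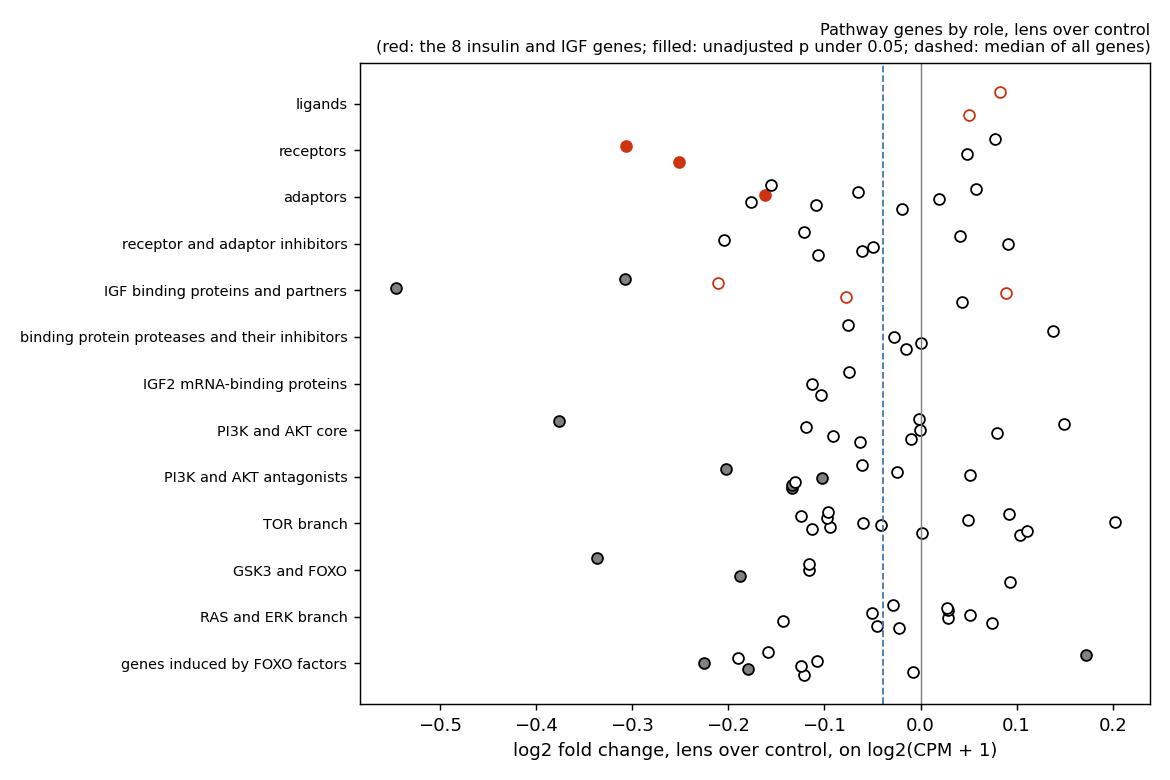
Log2 fold change of the 89 tested pathway genes, lens over control on log2(CPM + 1), 1 point per gene in rows by role; red points are the 8 genes, filled points have an unadjusted p under 0.05 and the dashed line is the median of all genes tested (-0.04). IGFBP4 (-0.55) and PIK3R2 (-0.38) lie farthest below 0, and none of the points passed the adjusted test.

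By W-linked RNA, 2 of the 81 other pathway genes passed, both lower in libraries with it, a share close to the 2.64% of all genes (2.48% lower). Both lie on chromosome Z, of which female birds carry a single copy. RICTOR, the defining subunit of TOR complex 2, ranged from 57.5 to 79.1 CPM in the 5 libraries with W-linked RNA and from 92.9 to 118.0 CPM in the 9 without. The ranges did not overlap, and the log2 difference was -0.59 (SE 0.08, limma adjusted p = 9.51e-05). PIK3R1, the main regulatory subunit of PI3K, ranged from 118.0 to 147.0 CPM with and from 142.5 to 170.2 CPM without W-linked RNA, a log2 difference of -0.27 (SE 0.07, adjusted p = 0.0309). PIK3R1 no longer passed without control replicate 1, 2, 5, 6 or 7 (adjusted p = 0.0507, 0.0686, 0.116, 0.108 and 0.0835). Their lens values were 0.20 for RICTOR and 0.15 for PIK3R1, and -0.05 and 0.03 once W-linked RNA was in the model.

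For each of the 8 genes, the 3 genes with the most similar profile over the 14 libraries were found. They were sought among 8984 or 8985 tested genes with a mean of at least 2 CPM and a symbol not starting with LOC. These r are the highest of many and are given with no test. INSR was followed most closely by GORASP2, a Golgi stacking protein (r = 0.94, rho 0.92), PSD (0.94, rho 0.89) and GPC1, a glypican (0.93, rho 0.94). For IGF1R they were HNRNPA1, an RNA-binding protein (0.94, rho 0.89), SGIP1 (0.93, rho 0.90) and VEZF1 (0.92, rho 0.86). PTP4A1, SMAD1 and FIGN were nearest to IRS2 (0.89, 0.87 and 0.85; rho 0.91, 0.82 and 0.84). IGF1 had SHTN1, PCNX1 and IGF2R, which is on the pathway list (0.91, 0.90 and 0.81, with rho 0.78, 0.89 and 0.89). IGF2 had PBRM1, BORL4 and CTIF (0.80, 0.79 and 0.76, with rho 0.78, 0.82 and 0.82).

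Profiles of the binding proteins rested more on single libraries. The nearest to IGFBP5 were FRMPD3, NCS1 and SAMD4A (0.91, 0.90 and 0.89; rho 0.86, 0.78 and 0.70), which became 0.73, 0.52 and 0.64 without the 2 libraries farthest from its median. For IGFBP2 they were ACCS, ZBTB17 and MRPL34 (0.88, 0.83 and 0.83; rho 0.79, 0.84 and 0.82), and for IGFBP3 ATAD3A, NOC2L and DNM3 (0.84, 0.82 and 0.82; rho 0.73, 0.73 and 0.68), of which DNM3 dropped to 0.46. For INSR, the same step gave 0.94, 0.94 and 0.90.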

How the data were processed

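Total RNA from retina was sequenced after ribosomal RNA depletion with a stranded kit, per the labels' protocols. STAR, Partek and the GRCg6a genome are named in the submitters' processing notes; versions, roles and the use of strand are not given in the sources used here. The deposited values are CPM with an offset of 0.0001, as read from the values, and 92.9% to 93.6% of low values (up to 200 reads) lay within 0.02 of a whole multiple of 1 step per library. The offset was taken off and log2(CPM + 1) analysed with limma 3.58.1 (eBayes with trend) in R 4.3.3, two-sided, with Benjamini-Hochberg adjustment over the 14259 genes with at least 0.5 CPM on the column sum in 7 libraries. Groups followed the treatment label. A library was called as with W-linked RNA where HINTW exceeded 2 on the log2 scale. Gene positions were read from the table as deposited; chromosome names were taken from the GRCg7b gene table, to which 15419 symbols matched. Python 3.11.15, SciPy 1.17.1 and matplotlib 3.10.9 served for permutation tests and figures. The fit was tested on simulated data, drawn as normal values independent between genes. Changes were put only into genes with a mean above 2 CPM, as shifts of log2(CPM + 1). IGFBP2, IGFBP3 and IGFBP5 lie below that level, so the shares recovered do not apply to them. At an adjusted p under 0.05 it recovered 26 of 67 genes changed 1.25-fold, 58 of 67 changed 1.5-fold and 62 of 66 changed 2-fold. There were 9 false calls. Changes of about 1.25-fold are thus often missed. In the lens comparison itself 11 genes passed, fewer than in the simulation, and the adjustment is stricter where fewer genes pass. The shares recovered may therefore overstate what the lens comparison could detect.

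The genes, the pathway list, the marker lists and the tests were chosen with earlier results of these data known. Genes outside the 8 were named by rule: every pathway gene past an adjusted p of 0.05, the 2 smallest lens p-values per role, and the 3 most similar profiles for each of the 8; a few genes are not reported here. Other genes named (IRS4, IGF2BP2, HTRA1, AKT1, TRIB1, PHLPP1, FOXO1, KLF15, INS-IGF2, the overlapping transcripts and the markers) were chosen after their values were seen. Red blood cell markers, 0 listed of 7, were not used. Alternatives were 2 other pseudocounts, 2 other filters, 3 rescalings, a robust variance, the last letter of the sample code or W-linked RNA as a covariate, subsets of libraries, an exact permutation test and leaving out each library.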

Additional observations from a re-analysis of the deposited data

Results flagged for a closer look

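Within groups of 7 libraries, 4 of 16 sets of values held a library set apart by more than Dixon's 95% critical value (log2 scale). That value flags about 1 in 20 groups of normally distributed values. The share flagged over all genes was not worked out, so the count does not show that these genes differ from others. INSR in control replicate 5 stood at 17.95 CPM, below the other 6 controls, which reached up to 25.15 CPM. IRS2 in control replicate 4 stood at 34.55 CPM, below the other 6 (42.08 to 48.2 CPM). IGFBP2 in lens replicate 3 stood at 0.895 CPM, below the other 6 lens libraries (1.43 to 1.89 CPM), and IGFBP5 in control replicate 2 at 1.83 CPM, above the other 6 (0.232 to 0.604 CPM).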

How the results depend on the processing

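The count of 11 genes that passed in the lens comparison was 0 without the filter, 1 after median ratio rescaling, 0 after quantile normalization, 17 with a term for the code letter, 19 with one for W-linked RNA, and 2 in libraries that lack it; leaving out 1 library gave 0 to 18. It was 18 when control replicate 5 was left out, 4 for lens replicate 2, 3 for lens replicate 3 and 1 for control replicate 3 as for lens replicate 4. It was 0 for each of control replicates 1, 4, 6 and 7 and of lens replicates 1 and 5, where limma still gave 1485 to 1863 genes at an unadjusted p under 0.05 (2139 without the filter, 1866 after quantile normalization). None of the 8 genes passed in these alternatives, and leaving out 1 library gave 0 to 1, INSR without control replicate 5. The count by W-linked RNA, 376, was 317 to 389 when 1 library was left out and 230 among controls only. The 2 other pathway genes passing there became 1 without the filter, after median ratio rescaling, among controls only, and 1 to 2 with 1 library left out; RICTOR passed each time.

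No sign turned for INSR (-0.36 to -0.22), IGF1R (-0.28 to -0.20), IRS2 (-0.24 to -0.11), IGF1, IGF2, IGFBP3 or IGFBP5 with the lens. The sign of IGFBP2 turned (0.013) in the libraries that lack W-linked RNA. By W-linked RNA, IGF2 turned without the treatment term (-0.011) and with 1 library left out (-0.04 to 0.21), and IRS2 likewise (0.064, and -0.093 to 0.05). The cause was not tested. No paired analysis was possible because the control and lens sample codes share no number. The binding proteins rest on few reads (8 to 93 per library), which limits what can be seen of them.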
